A study of Rattus norvegicus with 24 samples.

Results

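The miR-200 family, the miR-183 cluster and miR-205 are small RNAs best known from epithelia and sense organs, and they were followed here through 2 nuclei of the rat brain. They comprised 9 of the 1098 miRNAs counted, of which 703 are known rat miRNAs, and were picked by name (rno- marks rat and is left off below): rno-miR-200a-3p, rno-miR-200b-3p, rno-miR-429, rno-miR-200c-3p and rno-miR-141-3p of the miR-200 family, rno-miR-182, rno-miR-183-5p and rno-miR-96-5p of the miR-183 cluster, and rno-miR-205. Because they were picked with results of these libraries known, their differences and the numbers of them past a threshold of p are given as a description, and no call is read as a test of them. Small RNA was sequenced from the paraventricular nucleus of the hypothalamus (PVN) and from the central amygdala (CEA) of male Sprague-Dawley rats bought at 7 weeks of age, in 24 libraries with 3 for each nucleus and treatment. Normal control (NC) rats had no surgery. Hepatectomy (HT) rats lost about 20% of the left lobe of the liver under isoflurane. The HT + EA group had the same operation with electroacupuncture at 2 and 15 Hz for 30 min at the Zusanli and Sanyinjiao points, in sessions 24 h ahead of surgery and directly following it, and in the HT + SEA group needles were placed there without being connected to the stimulator. Rats of every group were restrained while awake for the same time, with brains collected 24 h later than the final session. The comparisons ask what surgery changed in these nuclei and what electroacupuncture or its sham changed in operated rats.

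A miRNA guides the silencing machinery to messenger RNAs through its seed, the bases near its 5′ end, so miRNAs with the same or a similar seed share many targets. The miR-200 family holds epithelial cells in their state by repressing ZEB1 and ZEB2, and in the pituitary miR-200b and miR-429 are needed for ovulation. The miR-183 cluster is expressed in hair cells, the retina and other sensory cells, where loss of its members impairs hearing and vision. miR-205 is an epithelial miRNA of skin and glands that also represses ZEB1 and ZEB2.

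The mature sequences show which of these miRNAs have similar seeds, with seed bases 2 to 8 in capitals. RefSeq (assembly GRCr8) gave a mature sequence for 6 of the 9 miRNAs, 21 to 25 bases long, and miR-200a-3p, miR-200b-3p and miR-429 are named only.
miR-200c-3p: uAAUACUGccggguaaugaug
miR-141-3p: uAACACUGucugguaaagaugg
miR-182: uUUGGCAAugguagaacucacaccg
miR-183-5p: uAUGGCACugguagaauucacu
miR-96-5p: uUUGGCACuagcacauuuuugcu
miR-205: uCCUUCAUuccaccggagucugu
Counted from the 5′ end, the seeds of miR-200c-3p and miR-141-3p differed at 1 of 7 bases (U4C). Within the miR-183 cluster, miR-182 and miR-96-5p differed at 1 seed base (A8C), miR-183-5p and miR-96-5p at 1 (A2U), and miR-182 and miR-183-5p at 2. The seed of miR-205 differed from every other seed shown at 5 or 6 of its bases.

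The genes lay in 3 clusters and 1 separate locus, all on the minus strand of GRCr8. The hairpins of miR-200b, miR-200a and miR-429 spanned 1908 bp at chr5:171929682-171931589, inside the span of Ttll10 and of a lncRNA, LOC106182250. Those of miR-200c and miR-141 spanned 509 bp at chr4:159209525-159210033, between Phb2 and Ptpn6. The hairpins of miR-183, miR-96 and miR-182 spanned 3908 bp at chr4:59752246-59756153, between Nrf1 and Ube2h, and miR-205 lay at chr13:107564535-107564642. The files themselves give no coordinates.

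The libraries held 6584345 to 14828269 miRNA reads each in the PVN and 9463321 to 14913564 in the CEA. Levels are given as CPM, the reads of a miRNA scaled by all miRNA reads of the library, and 3 reads, taken as the floor, correspond to 0.202 to 0.456 CPM in the PVN and 0.201 to 0.317 CPM in the CEA. All 9 had at least 1 read among the libraries of each comparison and entered each fit. At these depths the miRNAs were scarce, from a mean of 28.5 CPM for miR-182 to 0.681 CPM for miR-141-3p over the 12 PVN libraries. In the PVN miR-200a-3p had 40 to 465 reads per library, miR-182 163 to 537 and miR-141-3p 3 to 15. Counting error alone therefore gave miR-200a-3p in PVN NC replicate 1 a 95% interval of 4.47 to 8.45 CPM around 6.23 (exact binomial). Reads are not separate molecules, so such intervals and floors cover counting error only.

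The libraries that stood apart were 3, and they touch the results that follow. In PVN NC replicate 2, PVN HT + EA replicate 2 and CEA NC replicate 2, miR-200a-3p was 4.56, 3.56 and 5.83 times as high as in the next library of the same group. In each of them miR-200a-3p, miR-200b-3p, miR-429, miR-182, miR-183-5p and miR-96-5p were above both other libraries of the group. miR-200c-3p, miR-141-3p and miR-205 were not above both in every one of them, and miR-205 in PVN NC replicate 2 was at 2.16 CPM against 3.39 and 6.68 CPM in the others.

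The CPM of each miRNA in each library are plotted next.

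**Figure D1:**
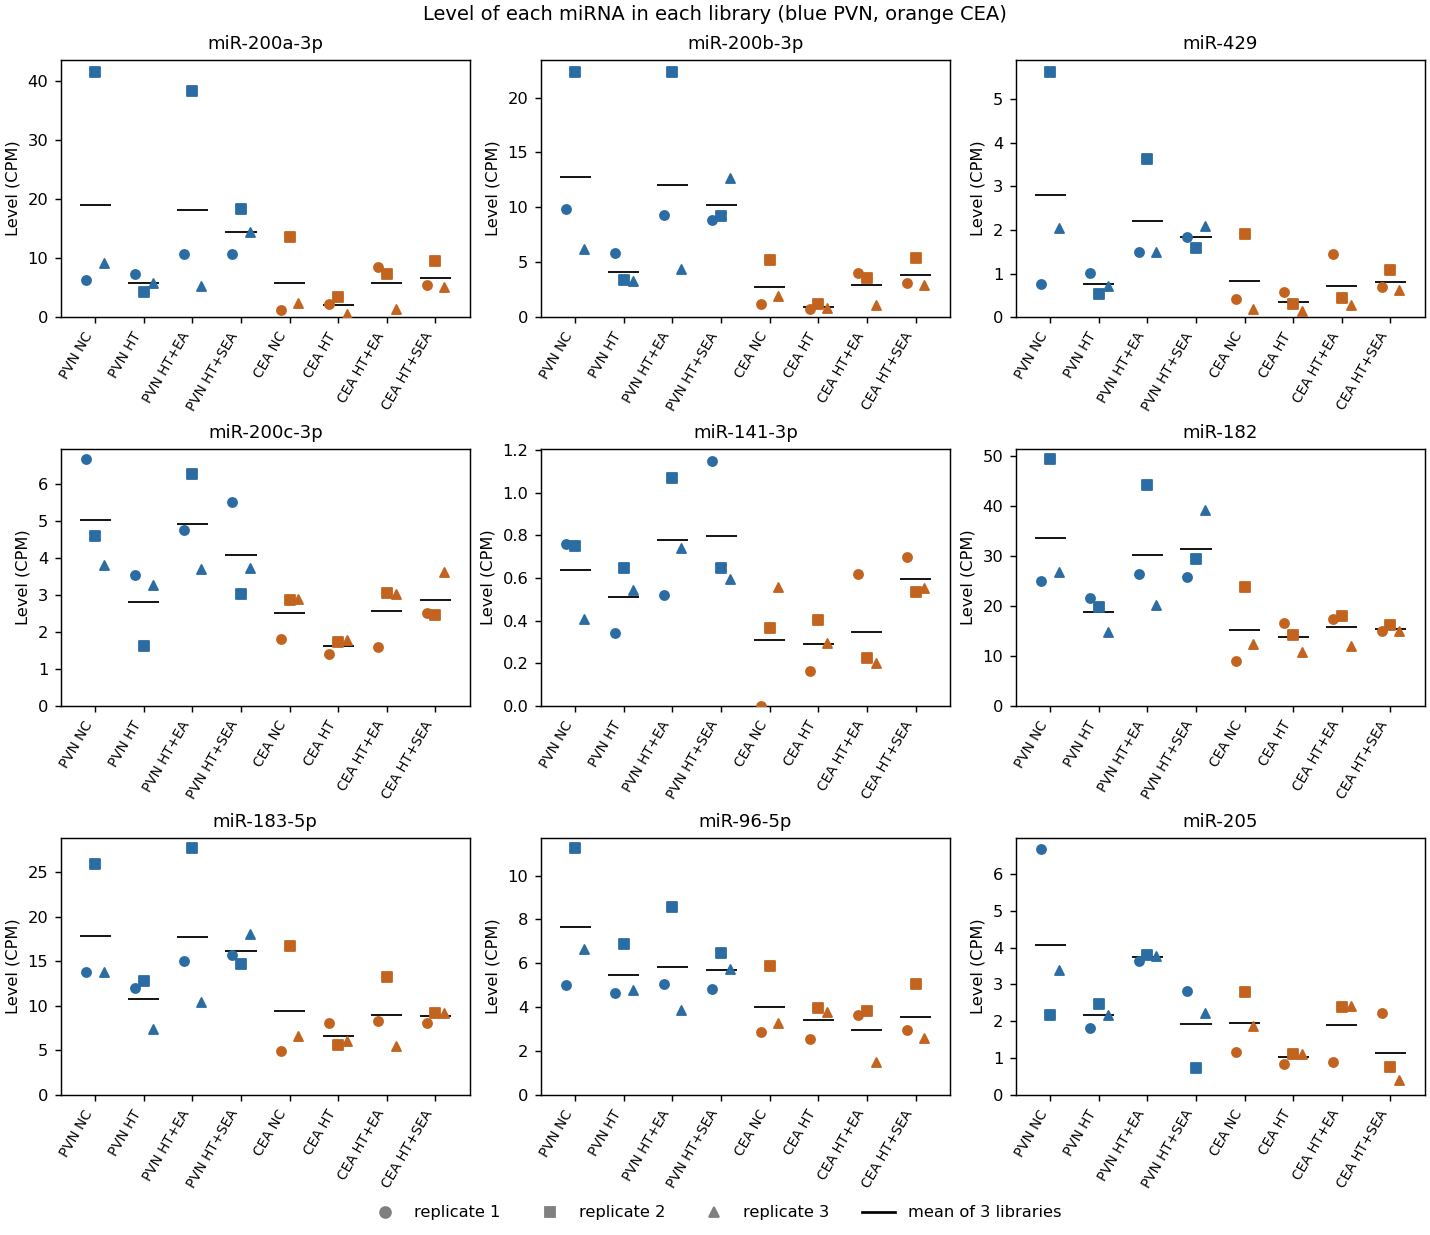
CPM of the 9 miRNAs (y axes, linear, from 0) in each of the 24 libraries, by nucleus and treatment (x axes). Marker shapes give the replicate number and bars the mean of 3 libraries. The PVN HT libraries of miR-200b-3p lie at 5.80 CPM or lower, and PVN NC replicate 2 and PVN HT + EA replicate 2 lie far above the other libraries for miR-200a-3p.

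All 9 miRNAs were higher in the PVN than in the CEA. In a fit of the 24 libraries that allowed for treatment, the log2 fold change (PVN over CEA ± standard error, edgeR) was 1.46 ± 0.34 for miR-200a-3p, 1.89 ± 0.25 for miR-200b-3p and 1.40 ± 0.32 for miR-429. It was 0.76 ± 0.16 for miR-200c-3p and 0.78 ± 0.30 for miR-141-3p, the second cluster of the family. For the miR-183 cluster it was 0.85 ± 0.16 for miR-182, 0.83 ± 0.18 for miR-183-5p and 0.78 ± 0.17 for miR-96-5p, and for miR-205 it was 0.91 ± 0.23. The 3 miRNAs of the chromosome 5 cluster thus had larger values than the other 6, and the difference among the members was not tested. Of all miRNAs tested, 20.1% were called higher in the PVN at a Benjamini-Hochberg adjusted p under 0.05, as were 9 of these 9. When each library was left out in turn 8 or 9 were called, and the 1 lost was miR-141-3p. The median log2 fold change was 0.85 over the 9 and 0.03 over all miRNAs.

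The levels overlapped between the nuclei when treatments were pooled. miR-200b-3p had a lowest, median and highest CPM of 3.26, 9.01 and 22.3 in the PVN and 0.741, 2.44 and 5.43 in the CEA. For miR-182 these were 14.8, 26.1 and 49.4 CPM in the PVN and 8.98, 15.04 and 23.9 CPM in the CEA. Within a treatment the separation was clearer for miR-200b-3p, whose 3 PVN libraries were above the 3 CEA libraries in all 4 treatments. Of all miRNAs 18.1%, 19.6%, 18.2% and 19.2% were separated in this direction in NC, HT, HT + EA and HT + SEA. The ratio of mean CPM between the nuclei ranged over the treatments from 2.68 to 4.61 for miR-200b-3p, from 2.17 to 3.31 for miR-200a-3p and from 1.36 to 2.23 for miR-182. For miR-183-5p the nuclei were separated in 1 treatment and for miR-141-3p in none.

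**Figure D2:**
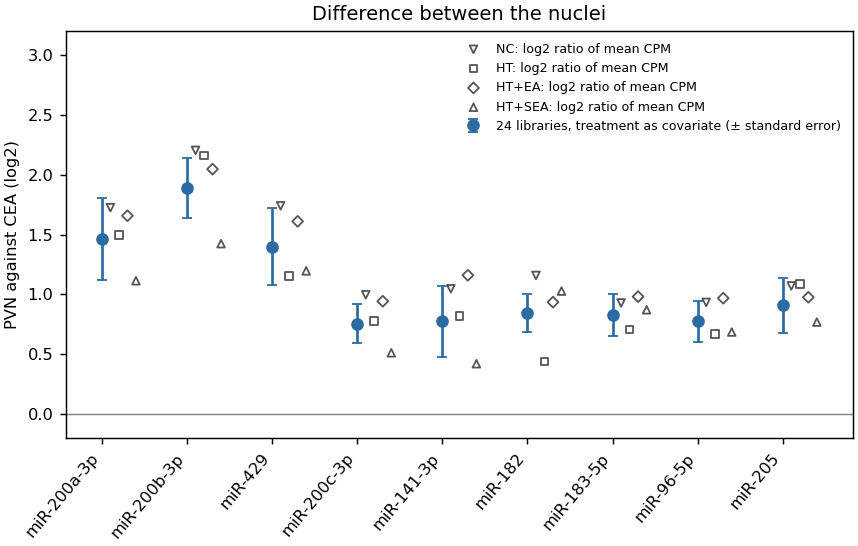
Difference between PVN and CEA on a log2 scale (y axis) for the 9 miRNAs (x axis). Filled points are fitted over 24 libraries with their standard error, and open symbols are log2 ratios of mean CPM in each treatment. Every value lies above 0, and miR-200b-3p has the highest fitted value at 1.89.

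Other lists also differed between the nuclei. The summed level of 3 miRNAs of hypothalamic and pituitary endocrine cells (miR-7a-5p, miR-7b and miR-375-3p) was 134902 to 170631 CPM in the PVN and 24828 to 54290 CPM in the CEA. That of 8 miRNAs of choroid plexus and ependyma (the miR-34b/c and miR-449 groups, miR-204-5p and miR-211-5p) was 3073 to 4645 CPM in the PVN and 605 to 1966 CPM in the CEA, with miR-449c-5p at or under 3 reads in each library. The 6 counted miRNAs of 7 for other epithelia summed to 754 to 976 CPM in the PVN and 673 to 1203 CPM in the CEA, so they overlapped. Brain neuron miRNAs (miR-124-3p, miR-9a-5p and miR-128-3p) summed to 102643 to 116260 CPM in the PVN and 137326 to 161729 CPM in the CEA, so both nuclei held the markers of brain tissue at high levels. Vessel miRNAs summed to 28018 to 33344 CPM in the PVN and 34889 to 40087 CPM in the CEA. In pieces of tissue, fewer cells of a type and less RNA per cell cannot be told apart, and the part of these lists in the differences between the nuclei was not tested.

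After hepatectomy all 9 miRNAs had a lower mean in the PVN than in NC. The chromosome 5 cluster had the largest values with all libraries in the fit, which for miR-200a-3p rested on NC replicate 2. miR-200a-3p was at 6.23, 41.5 and 9.10 CPM in the NC libraries (18.9 ± 19.6, mean ± SD, n = 3) and at 7.40, 4.31 and 5.70 CPM in the HT libraries (5.80 ± 1.54, n = 3). The groups overlapped, since NC replicate 1 lay below HT replicate 1, and the NC mean was carried by replicate 2. The log2 fold change was -1.76 ± 0.27, and without NC replicate 2 it was -0.44.

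miR-200b-3p was at 9.87, 22.3 and 6.25 CPM in NC and at 5.80, 3.34 and 3.26 CPM in HT. All NC libraries were above all HT libraries, and the log2 fold change was -1.68 ± 0.28, or -0.99 without NC replicate 2. miR-429, which comes from the same cluster and is much scarcer, was at 0.759, 5.62 and 2.04 CPM in NC and at 1.02, 0.539 and 0.724 CPM in HT. Its groups overlapped through NC replicate 1, and its log2 fold change of -1.95 ± 0.47 became -0.91 without NC replicate 2.

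In the second cluster of the family, miR-200c-3p was at 6.68, 4.59 and 3.80 CPM in NC and at 3.53, 1.62 and 3.26 CPM in HT, without overlap and with no library standing apart (log2 fold change -0.87 ± 0.34). miR-141-3p had 5, 8 and 3 reads in NC and 3, 6 and 6 reads in HT, with overlap (log2 fold change -0.36 ± 0.74).

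With all libraries in the fit, the values of the miR-183 cluster were smaller than those of the chromosome 5 cluster. Without NC replicate 2 this did not hold for miR-200a-3p, at -0.44 beside -0.50 for miR-182. miR-182 was at 24.9, 49.4 and 26.7 CPM in NC and at 21.6, 19.7 and 14.8 CPM in HT, and miR-183-5p at 13.8, 26.0 and 13.9 CPM in NC and at 11.9, 12.8 and 7.42 CPM in HT. Neither overlapped between the groups, although the gap between the lowest NC and the highest HT library was small beside the height of NC replicate 2. Their log2 fold changes were -0.88 ± 0.22 and -0.77 ± 0.24, and -0.50 and -0.40 without NC replicate 2. miR-96-5p was at 5.01, 11.2 and 6.65 CPM in NC and at 4.66, 6.90 and 4.80 CPM in HT, with overlap and a log2 fold change of -0.54 ± 0.28, or -0.14 without NC replicate 2.

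miR-205 was at 6.68, 2.16 and 3.39 CPM in NC and at 1.82, 2.48 and 2.17 CPM in HT (log2 fold change -0.92 ± 0.37). Here NC replicate 1, not replicate 2, was the high library, and NC replicate 2 lay below HT replicate 2 and replicate 3. Without NC replicate 1 the log2 fold change was -0.41.

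In the PVN 7 of the 9 miRNAs were called lower in HT at the unadjusted p threshold of 0.05 that the study used, beside 6.09% of all miRNAs tested. Since the members were picked knowing this contrast, nothing further is read from the count. The fit gave single miRNAs almost no spread of their own, so the standard errors of miR-200a-3p and miR-429 are small beside the distance between their NC libraries, and the same holds for the CEA fit of HT and NC and the PVN fit of real and sham electroacupuncture. The 4 miRNAs without overlap (miR-200b-3p, miR-200c-3p, miR-182 and miR-183-5p) stand beside 4.77% of all miRNAs separated in that direction. Without NC replicate 2 the number called was 4. The marker lists were not even between these libraries. The 4 skeletal muscle miRNAs listed summed to 111 CPM in NC replicate 2 against 44.8 and 46.4 CPM in the other NC libraries and 20.9 to 31.3 CPM in HT. Only 2 of these 4 were above both other NC libraries there. Most of the sum was miR-206-3p, at 91.0 CPM against 25.7 and 32.9 CPM in the other NC libraries. The choroid plexus and ependyma list summed to 3867 to 4645 CPM in NC and 3073 to 3321 CPM in HT, with NC replicate 2 the lowest of the NC libraries, and the blood list to 366 to 519 CPM in NC and 301 to 329 CPM in HT. Within the blood list miR-223-3p, a miRNA of myeloid cells singled out here after its values were seen, was at 22.3, 89.0 and 81.2 CPM in NC and at 1.02, 1.40 and 1.54 CPM in HT. Its groups lay far apart, and unlike the members of the chromosome 5 and miR-183 clusters it was nearly as high in NC replicate 3 as in NC replicate 2. The part of these lists and of miR-223-3p in the lower levels of HT was not tested.

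In the PVN of HT + EA rats all 9 miRNAs had a higher mean than in that of HT rats. miR-200a-3p was at 10.8, 38.3 and 5.33 CPM in the HT + EA libraries, of which replicate 3 lay within the HT range. Its log2 fold change over HT was 1.66 ± 0.41, and 0.48 without HT + EA replicate 2. miR-200b-3p was at 9.29, 22.3 and 4.38 CPM, again with replicate 3 inside the HT range (1.56 ± 0.37, and 0.73 without replicate 2). miR-429 was at 1.49, 3.63 and 1.48 CPM, above all HT libraries (1.54 ± 0.44, and 0.97 without replicate 2).

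miR-200c-3p at 4.75, 6.26 and 3.71 CPM was also above all HT libraries (0.83 ± 0.30). miR-182 at 26.3, 44.3 and 20.1 CPM and miR-183-5p at 15.1, 27.8 and 10.4 CPM overlapped with HT (0.71 ± 0.23 and 0.75 ± 0.27, and 0.32 and 0.25 without HT + EA replicate 2). miR-96-5p at 5.05, 8.57 and 3.84 CPM had a log2 fold change of 0.12 ± 0.28, or -0.28 without HT + EA replicate 2. miR-141-3p had 7, 13 and 11 reads (0.62 ± 0.54).

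miR-205 was the most even of them in this group, at 3.64, 3.79 and 3.78 CPM (3.74 ± 0.0831, n = 3) against 2.16 ± 0.330 CPM in HT (n = 3). Its groups did not overlap, its log2 fold change was 0.83 ± 0.29, and it ranged from 0.76 to 0.94 when each library was left out in turn.

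Of the 9 miRNAs 7 were called higher in HT + EA than in HT at an unadjusted p under 0.05, beside 5.58% of all miRNAs, and 2 without HT + EA replicate 2. The 3 without overlap (miR-429, miR-200c-3p and miR-205) stand beside 7.72% of all miRNAs. In HT + EA replicate 2 the blood list summed to 406 CPM against 317 and 349 CPM in the other HT + EA libraries, with 3 of its 7 miRNAs above both. The endocrine list was above both others too (169000 against 149393 and 165107 CPM), with 2 of its 3 miRNAs. The sums of the muscle, choroid plexus, other epithelia and vessel lists were lower there than in both others. Even so, 2 of 4, 3 of 8, 1 of 6 and 1 of 4 of their miRNAs were above both. miR-223-3p was at 10.3, 8.98 and 11.9 CPM in HT + EA, above every HT library and lowest in replicate 2. The part of these lists and of miR-223-3p was not tested.

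In HT + SEA rats 8 of the 9 miRNAs had a higher mean in the PVN than in HT rats, and for them no library stood apart. miR-200a-3p was at 10.6, 18.3 and 14.4 CPM, miR-200b-3p at 8.81, 9.21 and 12.6 CPM and miR-429 at 1.84, 1.58 and 2.08 CPM. All 3 were above every HT library, with log2 fold changes of 1.34 ± 0.24, 1.32 ± 0.26 and 1.27 ± 0.45. Leaving out each library in turn moved that of miR-200a-3p between 1.07 and 1.57 and that of miR-200b-3p between 1.13 and 1.67.

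miR-182 at 25.8, 29.4 and 39.3 CPM and miR-183-5p at 15.7, 14.8 and 18.1 CPM were above every HT library too (0.76 ± 0.19 and 0.60 ± 0.21). miR-200c-3p at 5.51, 3.02 and 3.72 CPM overlapped with HT (0.55 ± 0.32). miR-96-5p at 4.82, 6.48 and 5.73 CPM and miR-205 at 2.83, 0.720 and 2.23 CPM also overlapped, with log2 fold changes of 0.08 ± 0.25 and -0.16 ± 0.40. Here 5 of 9 were called higher at an unadjusted p under 0.05, beside 3.6% of all miRNAs, and 5 did not overlap, beside 5.6% of all miRNAs. Of the marker lists, 3 were also higher in HT + SEA than in HT without overlap. The choroid plexus and ependyma list summed to 3423 to 3812 CPM in HT + SEA against 3073 to 3321 CPM in HT, the list of other epithelia to 899 to 969 CPM against 780 to 877 CPM, and the blood list to 334 to 378 CPM against 301 to 329 CPM. miR-223-3p was at 11.1, 1.58 and 1.49 CPM, so that replicate 1 alone was far above HT. The part of these lists in the higher levels of HT + SEA was not tested. The HT libraries are shared by all 3 of these comparisons in the PVN, so low values in them enter each one, and the values are set side by side only.

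Between real and sham electroacupuncture in the PVN the miR-200 family and the miR-183 cluster had differences of either sign. The log2 fold change of HT + EA over HT + SEA was 0.29 ± 0.15 for miR-200a-3p and 0.21 ± 0.17 for miR-200b-3p, and these became -0.87 and -0.60 without HT + EA replicate 2. It was -0.07 ± 0.13 for miR-182 and 0.12 ± 0.15 for miR-183-5p. miR-205 was the exception: its HT + EA libraries (3.64 to 3.79 CPM) lay above its HT + SEA libraries (0.720 to 2.83 CPM), with a log2 fold change of 0.96 ± 0.27 that ranged from 0.57 to 1.32 over the fits leaving out each library. It was the 1 member of 9 called at an unadjusted p under 0.05, beside 2.62% of all miRNAs called higher, and 5.43% of all miRNAs did not overlap in that direction. The lower end of its range came without HT + SEA replicate 2, which had 10 reads of miR-205. Counted in either direction, 5 members were called without HT + EA replicate 2, where miR-200a-3p and miR-200b-3p had values below 0. The number was 4 without HT + EA replicate 3. It was 2 without HT + EA replicate 1, HT + SEA replicate 1 or HT + SEA replicate 2. The share called higher is not the one to set beside these counts.

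**Figure D3:**
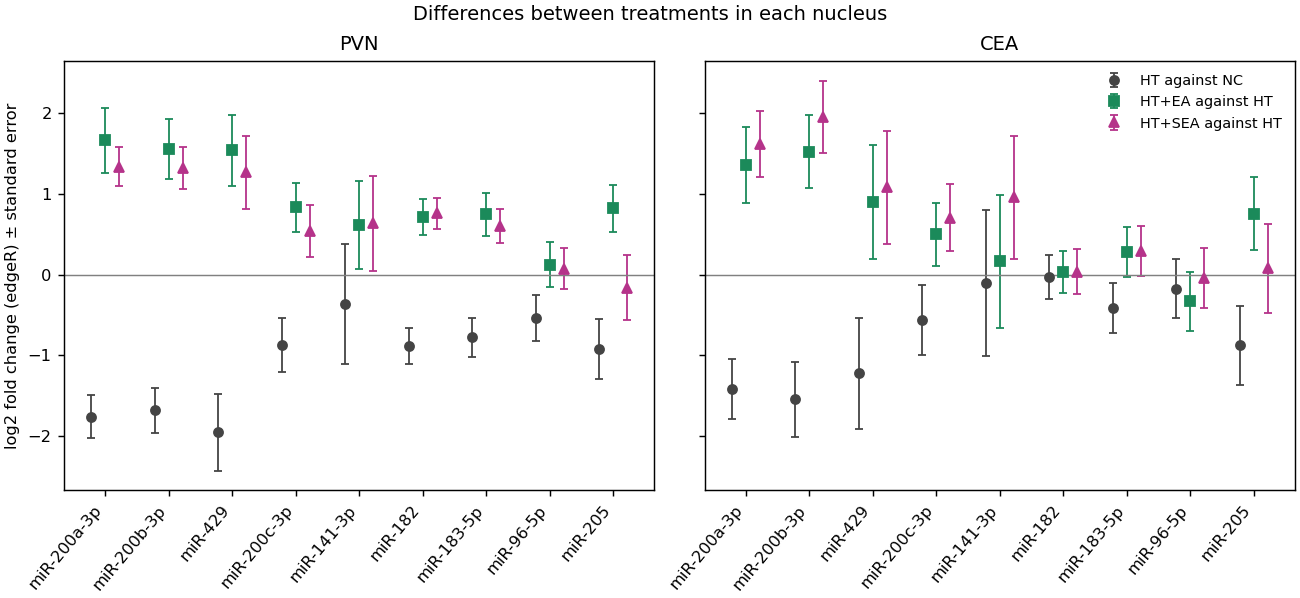
Log2 fold change with its standard error (y axis, edgeR) of the 9 miRNAs (x axis) for HT against NC, HT + EA against HT and HT + SEA against HT, in the PVN (left) and the CEA (right). In the PVN the HT against NC values lie between -1.95 and -0.36, and miR-205 is at 0.83 for HT + EA and -0.16 for HT + SEA.

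In the CEA the levels were lower, and miR-200a-3p and miR-200b-3p had the largest differences from HT beside their errors. miR-200a-3p was at 1.27, 13.6 and 2.33 CPM in NC, 2.31, 3.34 and 0.517 CPM in HT, 8.52, 7.31 and 1.41 CPM in HT + EA and 5.52, 9.48 and 5.05 CPM in HT + SEA. Every HT + SEA library was above every HT library, whereas NC and HT + EA both overlapped with HT. The log2 fold change of HT against NC was -1.41 ± 0.37, but without NC replicate 2 it was 0.26, so its direction rested on that library.

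miR-200b-3p was at 1.16, 5.21 and 1.96 CPM in NC and 0.741, 1.22 and 0.813 CPM in HT (-1.54 ± 0.46, and -0.69 without NC replicate 2). It was at 3.99, 3.58 and 1.14 CPM in HT + EA and 3.07, 5.43 and 2.92 CPM in HT + SEA, the latter above every HT library. Over HT its log2 fold change was 1.53 ± 0.45 in HT + EA and 1.96 ± 0.45 in HT + SEA, and that of miR-200a-3p was 1.36 ± 0.47 and 1.62 ± 0.41.

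These 2 were the members called at an unadjusted p under 0.05 in each of the 3 comparisons with HT, where 2.01% of all miRNAs were called lower in HT than in NC, 1.79% higher in HT + EA than in HT and 2% higher in HT + SEA than in HT. Groups did not overlap for 2 of 9 in HT against NC (miR-200c-3p and miR-205), beside 3.71% of all miRNAs lower in that way, for 0 of 9 in HT + EA against HT, beside 7.97% higher, and for 6 of 9 in HT + SEA against HT (the 5 of the miR-200 family and miR-183-5p), beside 4.2% higher. The number called was 0 without CEA NC replicate 2 in the first and 0 without CEA HT + EA replicate 2 in the second. Between HT + EA and HT + SEA in the CEA 0 of 9 were called, by edgeR's quasi-likelihood test and by DESeq2 at the same unadjusted threshold, beside 2.24% of all miRNAs.

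miR-200c-3p was at 1.80, 2.86 and 2.89 CPM in CEA NC, 1.40, 1.72 and 1.77 CPM in HT, 1.58, 3.06 and 3.02 CPM in HT + EA and 2.51, 2.45 and 3.63 CPM in HT + SEA. Its NC and HT + SEA libraries were above every HT library, the NC libraries by a narrow gap, and its log2 fold changes against HT were within 2 standard errors of 0 in HT + EA and HT + SEA (0.50 ± 0.39 and 0.71 ± 0.42). miR-429 ranged from 0.148 to 1.91 CPM in the CEA, with 2 to 26 reads, and its log2 fold change of HT against NC was -1.22 ± 0.68, or 0.30 without NC replicate 2. Over HT it was 0.90 ± 0.71 in HT + EA, or -0.13 without HT + EA replicate 1, and 1.08 ± 0.70 in HT + SEA (0.63 to 1.83 over the libraries left out). miR-96-5p ranged from 1.48 to 5.88 CPM, with log2 fold changes over HT of -0.33 ± 0.36 and -0.04 ± 0.37.

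Of the other 2 members of the miR-183 cluster, miR-182 was at 8.98, 23.9 and 12.4 CPM in NC and 16.6, 14.1 and 10.7 CPM in HT, with a log2 fold change of -0.03 ± 0.27, or 0.48 without NC replicate 2. miR-183-5p was at 4.86, 16.7 and 6.62 CPM in NC and 8.07, 5.57 and 6.06 CPM in HT (-0.41 ± 0.31, and 0.31 without NC replicate 2). For both, NC replicate 2 was the highest library of the nucleus and NC replicate 1 the lowest. Over HT, miR-182 differed by 0.03 ± 0.26 in HT + EA and 0.04 ± 0.28 in HT + SEA on the log2 scale, and miR-183-5p by 0.28 ± 0.31, or -0.11 without HT + EA replicate 2, and 0.30 ± 0.31. miR-205 was at 1.16, 2.79 and 1.87 CPM in NC, 0.824, 1.11 and 1.11 CPM in HT, 0.893, 2.39 and 2.41 CPM in HT + EA and 2.23, 0.765 and 0.395 CPM in HT + SEA. NC lay above HT without overlap, but by a narrow gap. miR-141-3p was at 0 of 9463321 reads in NC replicate 1, which puts it under the floor of 3 reads at 0.317 CPM (exact binomial upper limit 0.390 CPM), and had 2 to 10 reads in the other CEA libraries.

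In CEA NC replicate 2, the CEA library with the most of the chromosome 5 cluster, the choroid plexus and ependyma list summed to 1901 CPM against 853 and 867 CPM in the other NC libraries, with 7 of its 8 miRNAs above both. The endocrine list there was at 24828 CPM, below the 31810 and 46868 CPM of the others. Of its 3 miRNAs, 1 was above both others, miR-375-3p at 23.4 CPM against 11.1 and 8.02 CPM. miR-223-3p was at 1.27, 10.7 and 10.8 CPM in CEA NC, 0.906, 0.912 and 0.886 CPM in HT, 1.24, 12.5 and 10.5 CPM in HT + EA and 19.0, 1.38 and 1.74 CPM in HT + SEA. Every library of the other groups was above every HT library. In PVN NC replicate 2 no miRNA of the choroid plexus list was above both others. The part of these lists and of miR-223-3p in the high libraries and in the CEA differences was not tested.

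The effect of surgery was also compared between the nuclei, and with all NC and HT libraries in the fit miR-182 had the largest difference beside its error. For HT against NC the difference in log2 fold change (PVN minus CEA) was -0.41 ± 0.54 for miR-200a-3p, -0.20 ± 0.56 for miR-200b-3p, -0.93 ± 0.37 for miR-182 and -0.13 ± 0.63 for miR-205. An interaction was called for 0 of 9 at an adjusted p under 0.05 by edgeR's quasi-likelihood test and by DESeq2, and for 1 (miR-182) at an unadjusted p under 0.05 in edgeR, beside 3.48% of all miRNAs lower there and 0.188% called at the adjusted threshold. Without CEA NC replicate 2, 1 member was called at an adjusted p. For HT + EA against HT 0 of 9 were called at either threshold in edgeR and 0 at an adjusted p in DESeq2, beside 1.9% of all miRNAs at the unadjusted and 0% at the adjusted threshold. All of these differences had standard errors of 0.37 or more, so differences of that size could not be shown.

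The 3 high libraries were high for few other miRNAs. Over 514 miRNAs with a mean of at least 1 CPM, 9, 9 and 21 (1.75%, 1.75% and 4.09%) were at least 2 times the mean of the other libraries of the group in PVN NC replicate 2, PVN HT + EA replicate 2 and CEA NC replicate 2. Among the 8 members in that set 3, 4 and 5 were. The libraries were singled out by the member miR-200a-3p itself, so it had to be among them, and nothing is read from the members' counts. Outside the members the largest of these ratios were those of miR-206-3p, a skeletal muscle miRNA, in PVN NC replicate 2 (3.11), of miR-743b-3p in PVN HT + EA replicate 2 (4.89) and of miR-292-5p in CEA NC replicate 2 (4.56).

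Across the 8 groups the library numbered 2 was the highest of its group for miR-96-5p in 8, for miR-200a-3p in 6 and for miR-182, miR-183-5p and miR-200b-3p in 5. Over the 514 miRNAs the library numbered 2 was the highest in 8 groups for 0.389% and in 5 or more for 9.92%. miR-200c-3p did not share this, with replicate 2 highest in 2 groups. The labels do not say what libraries of the same number have in common.

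The spread within groups was accordingly wide. The SD within groups of log2(CPM + 0.5) was 1.08 for miR-200a-3p, the 4th largest of the 514 miRNAs, 0.709 for miR-200b-3p (11th) and 0.649 for miR-429 (18th). It was 0.518 for miR-183-5p, 0.428 for miR-182 and 0.365 for miR-200c-3p, beside a median of 0.248 over all 514. With 3 libraries against 3, an exact two-sided permutation test of a single miRNA cannot go below p = 0.1.

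The ratio between 2 members varied to different degrees over the libraries. The SD over the 24 libraries of the log2 ratio of miR-182 to miR-183-5p was 0.190, the lowest of the 36 pairs of members, and their read ratio ranged from 1.36 to 2.53. The SD was 0.366 for miR-182 and miR-96-5p and 0.481 for miR-200a-3p and miR-200b-3p, both pairs from the same cluster. Across the 2 clusters of the miR-200 family it was 1.06 for miR-200a-3p and miR-200c-3p, whose read ratio ran from 0.292 in CEA HT replicate 3 to 9.04 in PVN NC replicate 2. The widest pair was miR-200a-3p and miR-205 at 1.30. These values come from the same 24 libraries and include counting error, which weighs more on the scarce miR-429, miR-141-3p and miR-205. The 0.5 CPM added before taking logs is close to the levels of miR-429 and miR-141-3p in the CEA and narrows their spread, so the pairs with either are drawn but not compared.

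**Figure D4:**
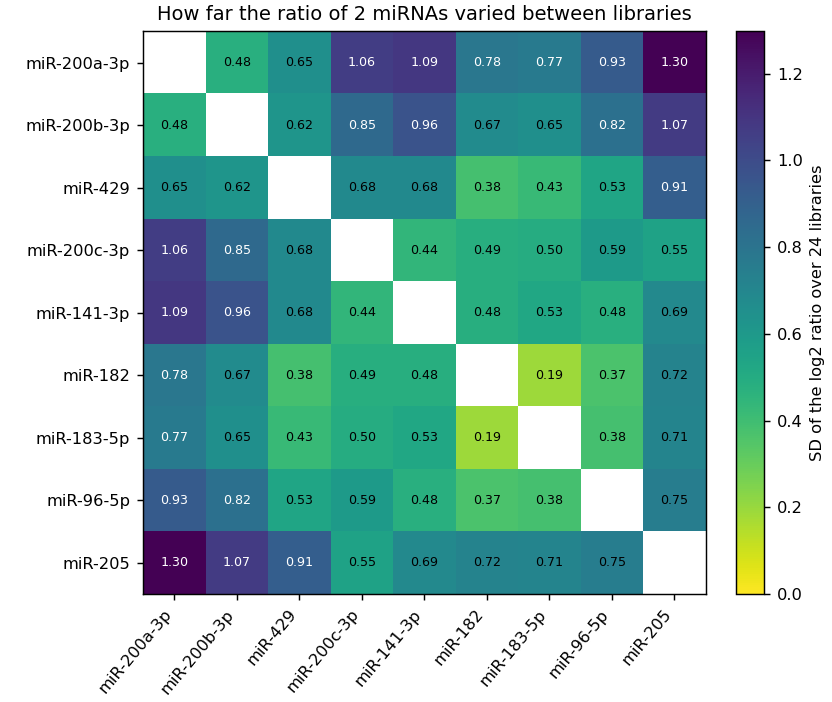
SD over the 24 libraries of the log2 ratio of each pair of members, from log2(CPM + 0.5), with members on both axes and the SD as color and number. miR-182 and miR-183-5p have the lowest value, 0.19, and miR-200a-3p and miR-205 the highest, 1.30.

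Among 362 other known miRNAs with a mean of at least 10 CPM, the 5 nearest to the summed miR-183 cluster by the same measure were miR-3553 (0.128), miR-540-3p (0.438), miR-3099 (0.442), miR-28-5p (0.447) and miR-532-5p (0.452), beside a median of 0.681. Nearest to the summed miR-200 family were miR-3553 (0.553), miR-3099 (0.794), miR-298-3p (0.814), miR-448-3p (0.818) and miR-28-5p (0.824), beside a median of 1.10. For the chromosome 5 cluster alone they were miR-3553 (0.739), miR-34c-5p (0.931), miR-34c-3p (0.951), miR-34b-5p (0.976) and miR-298-3p (0.976), beside a median of 1.30. The 3 miR-34 arms among these belong to the choroid plexus and ependyma list. The counts of miR-3553, the nearest in every case, were almost those of miR-183-5p.

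miR-3553 is annotated opposite miR-183-5p, on the plus strand at chr4:59756105-59756127, and miR-3548 opposite miR-200a-5p, the other arm of the miR-200a hairpin, at chr5:171930771-171930792. Their mature sequences are shown because each is the reverse complement of its partner over the bases in capitals.
miR-183-5p: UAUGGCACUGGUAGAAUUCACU
miR-3553: cAGUGAAUUCUACCAGUGCCAUA
miR-200a-5p: CAUCUUACCGGACAGUGCUGg
miR-3548: CAGCACUGUCCGGUAAGAUGcc
miR-3553 had 3432 reads over all libraries and miR-183-5p 3434, with the same count in 22 of 24 libraries and a difference of 1 read in the others. miR-3548 had 341 reads and miR-200a-5p 382, with the same count in 13 libraries and never a higher one. Over the whole table, 33 of 40 such pairs of known miRNAs on opposite strands, with at least 18 bases of overlap and 100 reads, differed by no more than 20% of their reads. How reads were assigned to a strand is not given in the sources used here, so miR-3553 and miR-3548 are not counted as measurements of their own, and which strand the reads came from cannot be told from the counts.

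**Figure D5:**
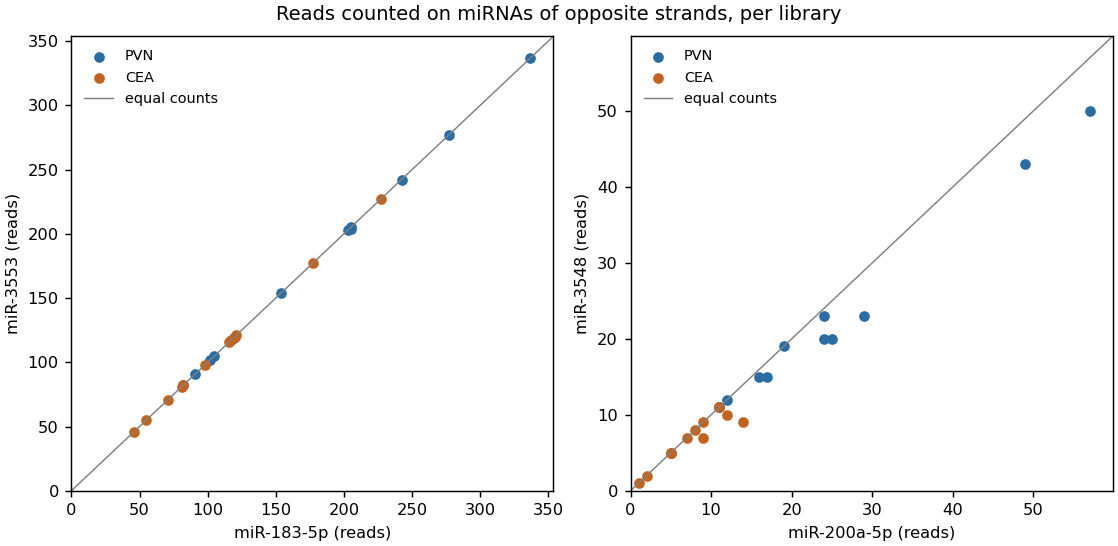
Reads counted on miR-3553 against miR-183-5p (left) and on miR-3548 against miR-200a-5p (right), 1 point per library, both axes linear from 0. Points of miR-3553 lie on the line of equal counts, and those of miR-3548 on or below it.

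Of the other arms of these hairpins 4 were counted, miR-200a-5p, miR-200b-5p, miR-141-5p and miR-183-3p, and only miR-200a-5p had more than 8 reads in any library. It was at 2.58, 5.34 and 2.58 CPM in PVN NC, 1.25, 1.29 and 0.995 CPM in HT, 1.78, 4.04 and 1.62 CPM in HT + EA and 1.23, 2.09 and 1.86 CPM in HT + SEA. Its NC and HT + EA libraries were above every HT library in the PVN, where the 3p arm of the same hairpin overlapped, and replicate 2 was the highest in both. The log2 fold change was -1.62 ± 0.41 for HT against NC and 1.09 ± 0.39 for HT + EA against HT. Without the replicate 2 of NC and of HT + EA these were -1.16 and 0.54. In the CEA it had 1 to 14 reads, and its log2 fold change of PVN over CEA was 1.84 ± 0.27. As the other arm of a member's hairpin in the same libraries, it is no independent support for the values of miR-200a-3p.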

How the data were processed

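The members, marker lists and comparisons were chosen with earlier results of these data known. The counts used are the raw reads on each miRNA that the authors deposited, with no normalization. According to the methods, HISAT2 placed the clean reads on the rat assembly mRatBN7.2, featureCounts counted them, and the miRNA libraries were made with a NEBNext small RNA kit. The submitters' processing notes name the same tools but the builds GRCh38 and hg38, which are human. The miRNA annotation and the use of strand in counting are not given in the sources used here. A further 24 columns of scaled values, whose names match no sample label, were not used.

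Each comparison was fitted over the whole table on the libraries it concerns with edgeR 4.0.16 (limma 3.58.1, R 4.3.3; TMM, glmQLFit, glmQLFTest; at least 1 count). Members were called at an unadjusted p under 0.05 within a nucleus, as in the study, and at a Benjamini-Hochberg adjusted p under 0.05 between nuclei and for interactions. A standard error is the size of the log2 fold change over the root of its F statistic. In the PVN, edgeR borrowed 478 prior degrees of freedom from other miRNAs in fitting HT and NC, and 23.3 in fitting HT + EA and HT, beside 4 of the libraries themselves. The prior was infinite for HT + EA against HT + SEA there and for HT against NC in the CEA, so errors of miRNAs that vary widely are too small. The quasi-likelihood step was tested on simulated data in which every miRNA had the same dispersion, so that test does not cover miRNAs that vary widely. Named miRNAs are the members, other arms of their hairpins, miRNAs opposite them, marker lists and the 5 nearest to each sum, where the sum of the chromosome 5 cluster was added after its values were seen. The largest ratios in the high libraries were named after their values were seen.

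Groups came from the labels. Nothing ties a library to an animal (the methods say that brain samples came from different rats), so the spread between libraries may be partly technical. No 2 libraries of a group agreed within counting noise. Same-numbered libraries deviated together across 366 miRNAs (each r over 0.1) for HT + EA and HT in the PVN (0.143 to 0.330) and for HT and NC in the CEA (0.242 to 0.523), and also between the nuclei in NC (0.149 to 0.291), HT + EA (0.185 to 0.236) and HT + SEA (0.160 to 0.639) but not in HT (-0.106 to 0.0599). Sources other than this check give no pairing, so the fits reported carry no block, and the block is an alternative. It gives each replicate number a common effect over all treatments of a fit. Pairs of nuclei within a treatment are therefore not modeled by it. The alternatives were DESeq2 1.42.0, its size factors, library totals, at least 10 counts, edgeR's robust estimate, a replicate block and leaving out each library. Leaving out all 3 high libraries was added after seeing the data. Tables and figures used Python 3.11.15, numpy 2.4.6, pandas 2.3.3, scipy 1.17.1 and matplotlib 3.10.9.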

Additional observations from a re-analysis of the deposited data

How the results depend on the processing

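The number of members called in each comparison, in either direction, was recomputed under each alternative. It moved by more than 1.5 times in 7 cases other than leaving out a library. With edgeR's robust estimate it was 3 in place of 7 for HT + EA against HT in the PVN, and, within the CEA, 1 in place of 2 when HT was set against NC or HT + EA. With at least 10 counts it was 1 in place of 2 in the same 2 CEA comparisons. DESeq2 gave 1 in place of 2 for CEA HT against NC, and its size factors in edgeR gave 2 in place of 1 between real and sham electroacupuncture in the PVN. The replicate block changed none of the 11 counts: with the block, 9 members were called between the nuclei, 7, 7, 5 and 1 in the PVN and 2, 2, 2 and 0 in the CEA, with 0 for both interactions.

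Leaving out each library in turn gave 8 to 9 members called between the nuclei. In the PVN it gave 4 to 8 for HT against NC, 2 to 7 and 4 to 6 for HT + EA and HT + SEA against HT, and 1 to 5 between the last pair. In the CEA the ranges were 0 to 5, 0 to 3, 2 to 3 and 0 to 1. Beyond the libraries named with the results, the number moved by over 1.5 times for PVN HT + EA against HT + SEA without any library but HT + SEA replicate 3 (2 to 5), for CEA HT against NC without NC replicate 1 (5), HT replicate 1 (4) or HT replicate 3 (1), and for CEA HT + EA against HT + SEA without HT + EA replicate 1 or HT + SEA replicate 1 (1 each). They were 0 to 1 for the difference between nuclei in the effect of surgery and 0 to 0 in that of electroacupuncture. Without all 3 high libraries 8 members were called between the nuclei and 0 for the effect of surgery. The fold changes of the members came from 1476 alternative fits, of which 1435 stayed within 1 SD of the value reported, 40 moved further and 1 changed the sign of a called value: miR-200a-3p in CEA HT against NC, at 0.26 without NC replicate 2 and between -1.87 and 0.26 over the libraries left out. The SD is that of the same miRNA within groups, so it is wider for miRNAs that vary more. Staying within it does not mean unchanged: miR-183-5p in PVN HT + EA against HT went from 0.75 to 0.25. Sign changes of values not called are left out of the 1. For miR-200b-3p they came in 10 of 18 fits of the difference between nuclei in the effect of electroacupuncture. Depth limited miR-141-3p, with 0 to 15 reads per library, and miR-429, with 2 to 60.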
